A study of Mus musculus with 12 samples.

Results

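The genes that build fatty acids and triglyceride in the liver were examined in 12 mice given silver nanoparticles or water. The set was a list of 33 genes chosen for their known roles, from regulators and carbon supply to chain synthesis, desaturation, glycerolipid assembly and lipid droplets. It was chosen with earlier results of these data known. A gene was measured where a probe set of the array names that gene alone, and where several did, the brightest one by its mean over all mice was used. By this rule 31 of the 33 genes had values, among 30063 genes on the array, and 30 of them were tested, among 19985. Srebf1, which encodes the insulin-responsive activator SREBP-1c, and the desaturase gene Scd2 had only probe sets that also name a microRNA, so no value is given for them. Mogat1, a monoacylglycerol acyltransferase gene, was measured but lay below the signal a gene needed to be tested.

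Each group held 4 mice, 2 of each sex, with 1 array of total liver RNA per mouse. The first group received 20 nm silver particles coated with polyvinylpyrrolidone (PVP), a neutral polymer. The second received 20 nm particles coated with citrate, a small charged molecule, and the third received water as the control. Both particle types were given at 4 mg of silver per kg by oral gavage, and gavage lasted 7 consecutive days in the particle groups. All mice were 3 months old when treated. Their strain was C57BL/6J -Oca2p-un/J, so the controls also carried the pink-eyed unstable allele of Oca2, and livers were taken 24 h after the last dose. The labels do not say whether the mice were fed or fasted before the livers were taken, or at which hour.

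The liver makes fatty acid when glucose, fructose and insulin are plentiful. SREBP-1c responds to insulin and ChREBP, the product of Mlxipl, to sugar metabolites, and both activate much of this list. Citrate leaves the mitochondria and is cleaved to acetyl-CoA, acetyl-CoA carboxylase makes malonyl-CoA from it, and fatty acid synthase builds palmitate with reducing power from NADPH. Elongases and desaturases then shape the chains, and acyltransferases, phosphatidate phosphatases and diacylglycerol acyltransferases join them to glycerol, after which triglyceride is stored in droplets or secreted. Transcripts of this set are known to follow feeding, the time of day and glucocorticoids.

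Sequences upstream of 4 genes are shown, which were picked for their values below. They are Mlxipl itself, Fasn and Elovl5, whose log2 fold changes over water were below 0 with either coating, and Lpin1. The log2 fold change of Lpin1 with citrate-coated particles was above 0. Each is the 250 bases before a RefSeq transcript start on GRCm38.p6, written 5′ to 3′ on the gene's strand. Capitals mark 3 motifs searched on both strands, the E-box core CACGTG that ChREBP and other basic helix-loop-helix proteins can bind, the CCAAT box of NF-Y and the GC box GGGCGG of Sp1 family proteins. A CCAAT box on the other strand reads ATTGG.
Mlxipl, chr5:135089640-135089889, plus strand: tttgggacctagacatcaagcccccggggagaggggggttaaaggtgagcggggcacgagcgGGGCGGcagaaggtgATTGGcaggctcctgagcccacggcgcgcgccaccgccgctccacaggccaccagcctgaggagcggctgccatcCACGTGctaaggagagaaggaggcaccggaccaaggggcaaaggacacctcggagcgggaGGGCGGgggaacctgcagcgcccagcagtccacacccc
Fasn, chr11:120824548-120824797, minus strand: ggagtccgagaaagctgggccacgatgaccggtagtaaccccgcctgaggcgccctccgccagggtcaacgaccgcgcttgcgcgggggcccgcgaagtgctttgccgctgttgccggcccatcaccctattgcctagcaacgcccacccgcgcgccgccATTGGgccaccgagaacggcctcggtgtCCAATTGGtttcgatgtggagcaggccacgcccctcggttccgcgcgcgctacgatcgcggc
Elovl5, chr9:77917115-77917364, plus strand: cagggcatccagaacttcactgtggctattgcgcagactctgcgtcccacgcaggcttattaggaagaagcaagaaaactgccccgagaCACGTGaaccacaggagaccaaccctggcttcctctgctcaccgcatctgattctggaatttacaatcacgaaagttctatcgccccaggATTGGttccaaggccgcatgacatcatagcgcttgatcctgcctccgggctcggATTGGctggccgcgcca
Lpin1, chr12:16610967-16611216, minus strand: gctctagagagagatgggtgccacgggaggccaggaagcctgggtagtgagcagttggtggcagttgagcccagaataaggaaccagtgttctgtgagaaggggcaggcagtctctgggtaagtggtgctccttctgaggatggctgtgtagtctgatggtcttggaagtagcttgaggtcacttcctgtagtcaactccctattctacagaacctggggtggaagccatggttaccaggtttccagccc
In this window Mlxipl held an E-box, a CCAAT box and 2 GC boxes. RefSeq lists a further Mlxipl start, and its window at chr5:135106641-135106890 held 0 of the 3 motifs. Fasn held 3 CCAAT boxes, 2 of which overlap on opposite strands, and Elovl5 held an E-box and 2 CCAAT boxes. The Lpin1 window held 0 of these letters, which says nothing about other parts of the gene.

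Over the whole list, 28 genes had a RefSeq start in the table used, with 39 windows between them. The E-box core was in 5 of the 39 windows, those of Elovl5, Khk, Lpin2, Mlxipl and Slc25a1, or 12.8%, against 6.02% of 32851 windows of the same length over all genes. The CCAAT box was in 15 windows, 38.5% against 33.9% of all windows, and the GC box in 19 windows, 48.7% against 32.7%. Such matches are descriptions of letters and not of binding.

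The arrays and the tissue were checked before the results were read. Control probe sets of the array are marked as positive or negative, and the area with which the positive ones exceeded the negative ones was 0.778, 0.821, 0.815 and 0.794 in PVP replicates 1 to 4, 0.814 to 0.827 in citrate livers and 0.804 to 0.842 in water livers. PVP replicates 1 and 4 had the lowest areas. The mean log2 signal of 7 hepatocyte markers was 18.7 to 18.8 in every group, near the ceiling of 19.93 of the deposited values. Over water, 2 of the 7 lay above 0 and 0 below with citrate, and 1 above and 2 below with PVP. Their median log2 fold change was 0.0 with either coating. Most of these markers did not differ at all, so they could show little change of the tissue. Of 8 adipocyte markers listed 7 were measured, and 5 of these lay below the median negative control probe set on every array. Their mean log2 signal was 4.12 to 4.42 in PVP livers, 4.17 to 4.52 in citrate livers and 4.11 to 4.37 in water livers. Whole liver was measured, so fewer cells of a type and less RNA per cell cannot be told apart.

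With PVP-coated particles the levels of most genes of the list lay below those of water controls, and no gene passed the test after adjustment over all genes. Of the 30 genes tested, 0 passed an adjusted p of 0.05 in limma, where 0.04% of all genes did. At an unadjusted p under 0.05 there were 12, or 40%, against 20.3% of all genes. All 12 were lower with PVP, where 12.2% of all genes were lower and 8.05% were higher at that p. The log2 fold change of 27 of the 30 was below 0, against 50.5% of all genes, and the median was -0.49 against -0.0023 over all genes tested. Scd1 at the ceiling of the signal and Lpin3, Pnpla3 and Cidec at its background are among the 30. Without these 4, 24 of 26 genes lay below 0 with a median of -0.59, and 12 had an unadjusted p under 0.05. In 7 genes each PVP liver lay below each water liver, a share of 23.3% against 4.92% of all genes, and in 0 genes each PVP liver lay above, against 2.98%. The 7 were Txnip, Khk, Pklr, Fasn, Elovl6, Agpat2 and Cideb.

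With citrate-coated particles the list as a whole lay near the water controls. Again 0 of 30 genes passed the adjusted threshold, against 0.005% of all genes. At an unadjusted p under 0.05 there were 4, against 6.57% of all genes. Lower among them were Mlxipl and Txnip, where 3.82% of all genes were lower, and higher were Acacb and Lpin1, where 2.75% were higher. Values lay below 0 in 14 of 30 genes, against 49.6% of all genes, and the median was 0.0023 against 0.0004 over all genes. Without the 4 genes at the ceiling or background, 13 of 26 lay below 0, with a median of -0.03. Each citrate liver lay below each water liver in 1 gene, Mlxipl, against 2.37% of all genes, and above in 1 gene, Lpin1, against 1.93%. The comparisons of PVP and of citrate with water use the same 4 water livers, so their values are given side by side and not set against each other.

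The coatings were compared directly as well. Of 30 genes 0 passed the adjusted threshold, against 0% of all genes. At an unadjusted p under 0.05 there were 11, against 14.0% of all genes, and all 11 were lower with PVP than with citrate, where 8.72% of all genes were lower and 5.29% higher. The log2 fold change of PVP over citrate was below 0 in 28 of 30 genes, against 50.2% of all genes, with a median of -0.47 against -0.0006. Without the 4 genes at the ceiling or background, 25 of 26 lay below 0, with a median of -0.53. In 5 genes each PVP liver lay below each citrate liver, against 4.84% of all genes, and in 0 genes above, against 2.36%. These 5 were Acacb, Elovl6, Fads1, Fads2 and Lpin1.

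**Figure D1:**
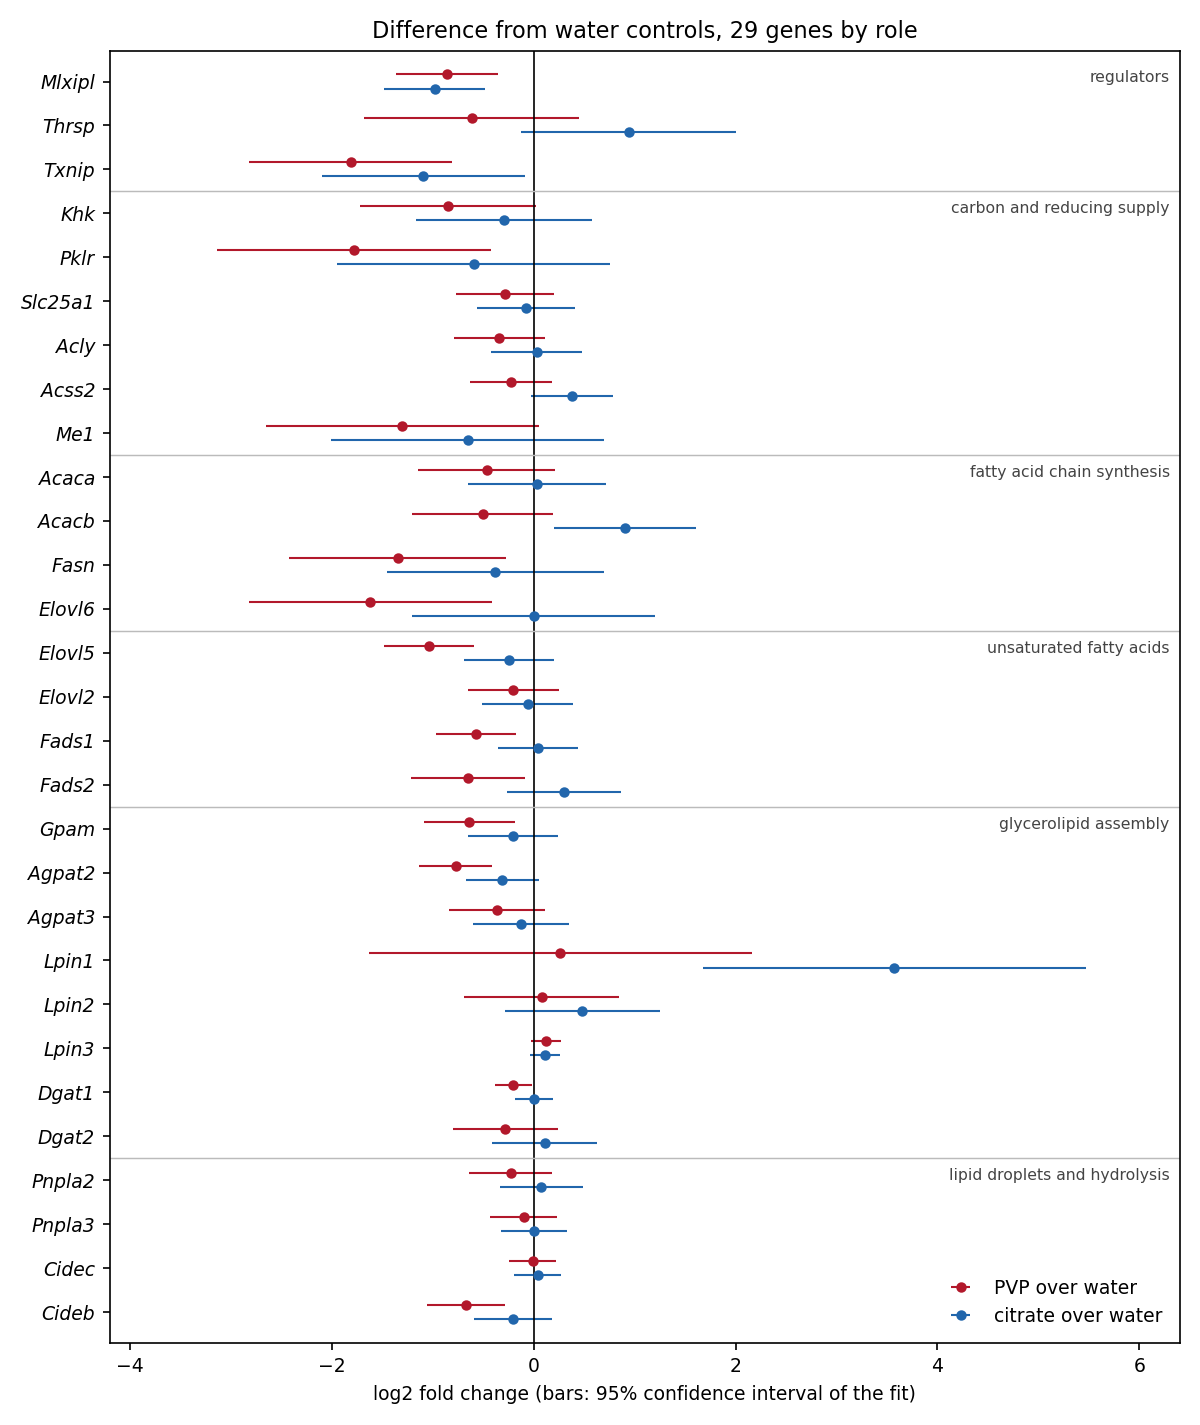
Log2 fold change over water (x axis) of 29 genes in order of role (y axis), with PVP in red and citrate in blue. Points are estimates of the fit and bars are 95% confidence intervals. Most red points lie left of 0, citrate points lie on both sides, and Lpin1 with citrate lies farthest right at 3.57. Scd1 is left out because of the ceiling of the signal.

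In single mice, the median of the list lay below the same-sex water controls in all 4 PVP livers, and also in citrate replicate 3. The median deviation of the 30 genes from the mean of the water controls of the same sex was -0.88 in PVP replicate 1, -0.41 in replicate 2, -0.38 in replicate 3 and -0.28 in replicate 4 on the log2 scale. It was 0.01, 0.10, -0.22 and 0.01 in citrate replicates 1 to 4. The water livers, which form the mean they are set against, had -0.075 and 0.075 in males and -0.083 and 0.083 in females. The number of genes below the mean of the same-sex controls was 26, 25, 24 and 23 in PVP replicates 1 to 4 and 14, 9, 21 and 14 in citrate replicates 1 to 4. The share of all genes below that mean was not counted for each mouse, so these counts cannot be set against it.

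PVP replicate 1 stood apart from the other PVP livers. It had the lowest level of the 12 mice in 16 of the 29 genes that could be ranked, and it also had the lowest control probe set area. Without it the median log2 fold change of the list was -0.33 for PVP over water and -0.33 for PVP over citrate. In each comparison 27 of 30 genes lay below 0, against 49.8% of all genes. At an unadjusted p under 0.05 there were then 11 genes for PVP over water, 10 of them lower, against 14.2% of all genes in either direction. For PVP over citrate there were 9, all lower, against 8.83% in either direction. Without both arrays of lowest area the medians were -0.43 and -0.35, with 26 and 27 genes below 0, against 50.6% and 51.1% of all genes. There 9 and 8 genes had an unadjusted p under 0.05, all lower, against 9.7% and 6.88% of all genes in either direction. With the area as a covariate the medians were -0.26 and -0.26, with 21 and 25 genes below 0, against 51.1% and 51.5% of all genes. In that fit 9 genes had an unadjusted p under 0.05 in each comparison, all lower. Over all genes 10.7% had such a p in either direction for PVP over water and 8.57% for PVP over citrate.

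**Figure D2:**
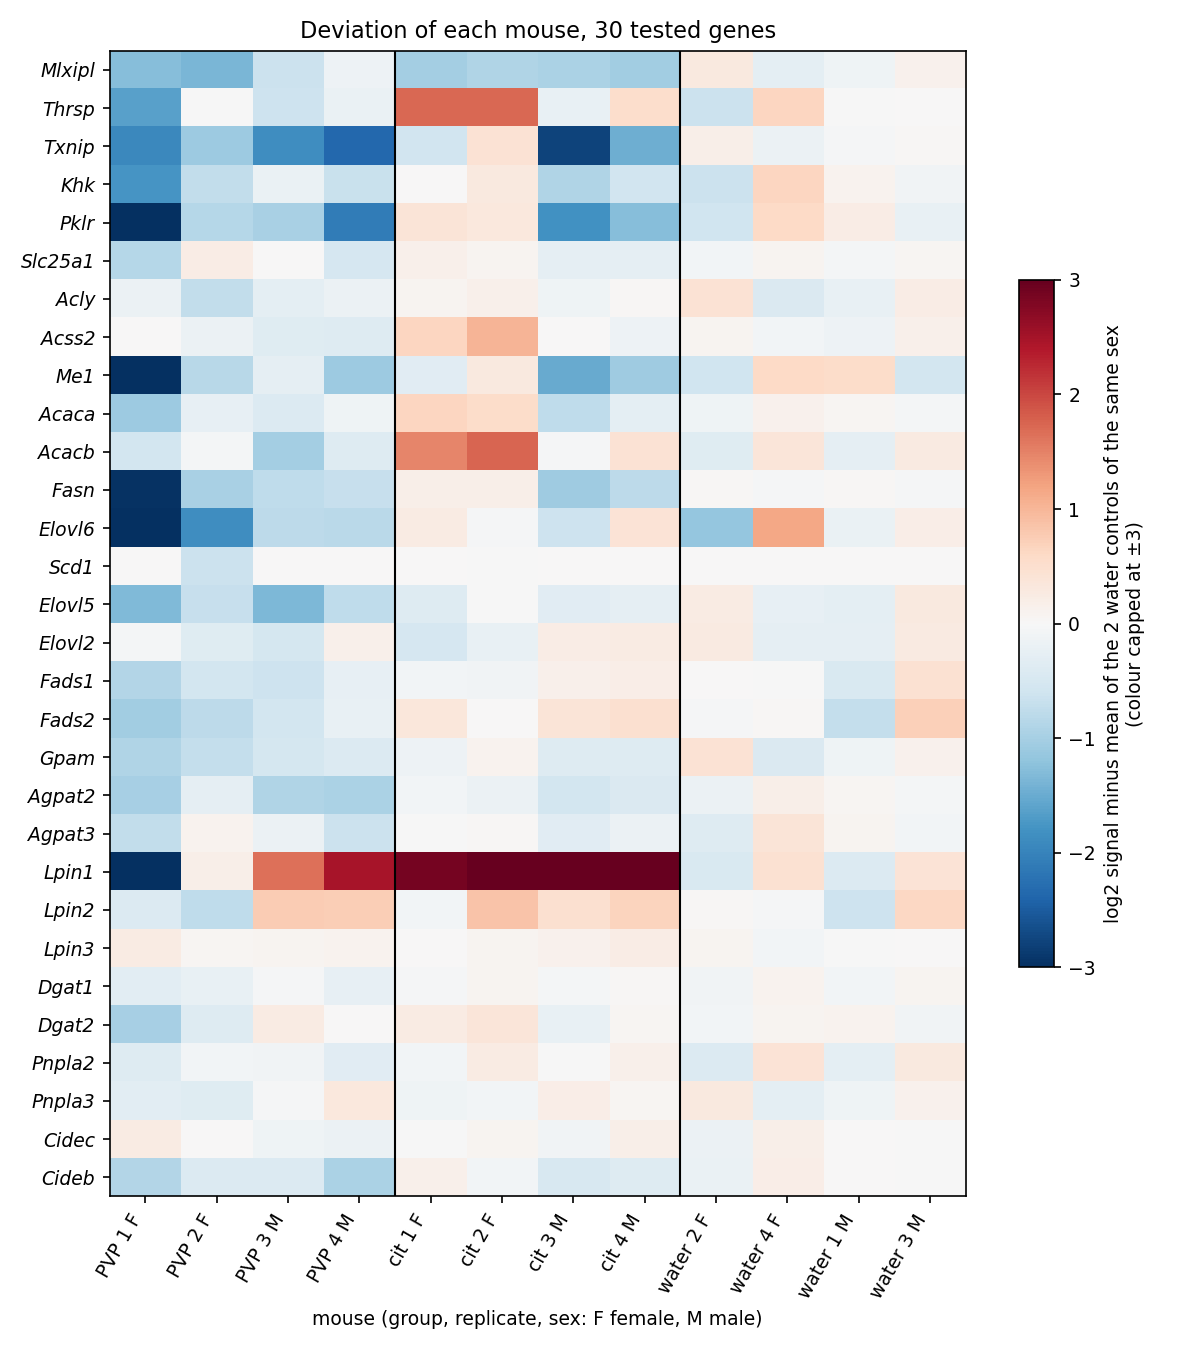
Log2 signal of each mouse minus the mean of the 2 water controls of its sex, for 30 genes (rows) and 12 mice (columns, PVP, citrate and water from left to right). Blue is lower and red is higher, with the colour capped at 3 in each direction. The 4 PVP columns are mostly blue, most strongly in replicate 1, while the Lpin1 row is red in every citrate column.

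The measured regulators on the list are Mlxipl, Thrsp and Txnip. In the values that follow, the 2 females of a group are given before its 2 males. Mlxipl, which encodes the sugar-responsive activator ChREBP, had log2 signals of 11.22, 11.12, 12.04 and 12.53 in PVP livers, 11.48, 11.58, 11.72 and 11.64 in citrate livers, and 12.78, 12.21, 12.56 and 12.80 in water livers. The 4 citrate livers and PVP replicates 1 to 3 lay below every water liver, and PVP replicate 4 lay among the water livers. Log2 fold changes were -0.86 (SE 0.23, limma adjusted p = 0.125) for PVP and -0.98 (SE 0.23, limma adjusted p = 0.296) for citrate, which is 1.81-fold and 1.97-fold lower.

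Txnip, a thioredoxin-binding protein gene that ChREBP is known to activate and whose product restrains glucose uptake, had 10.39, 11.25, 10.17 and 9.69 in PVP livers, 11.75, 12.77, 9.27 and 10.57 in citrate livers, and 12.51, 12.15, 12.01 and 12.07 in water livers. All 4 PVP livers lay below the water livers, while citrate livers were low in the males and spread about the water level in the females. Against water the log2 fold change was -1.81 for PVP (SE 0.45, limma adjusted p = 0.117), or 3.51-fold lower. It was -1.09 for citrate (SE 0.45, limma adjusted p = 0.712) and -0.63 without citrate replicate 3. Thrsp, or Spot 14, promotes fatty acid synthesis in the liver. Its log2 signals were 13.50, 15.12, 14.69 and 15.11 in PVP livers, 16.86, 16.87, 15.08 and 15.84 in citrate livers and 14.50, 15.77, 15.29 and 15.31 in water livers. The citrate females were the highest of the 12 mice and PVP replicate 1 was the lowest. For PVP over citrate the log2 fold change was -1.56 (SE 0.48, limma adjusted p = 0.271) and moved to -0.90 with the control probe set area as a covariate.

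The carbon and NADPH suppliers are Khk, Pklr, Slc25a1, Acly, Acss2 and Me1. Pklr, the pyruvate kinase of liver glycolysis and a ChREBP target, had 8.23, 10.58, 10.80 and 9.68 in PVP livers, 11.83, 11.74, 9.95 and 10.50 in citrate livers, and 10.82, 12.04, 11.9998 and 11.54 in water livers. Each PVP liver lay below each water liver, and so did both citrate males. With PVP the log2 fold change was -1.78 (SE 0.61, limma adjusted p = 0.177), or 3.43-fold lower. It was -1.16 without PVP replicate 1, -0.91 without both arrays of lowest area and -0.62 with the area as a covariate.

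Acly, which cleaves citrate to acetyl-CoA in the cytosol, had 12.35, 11.78, 11.75 and 11.86 in PVP livers, 12.59, 12.65, 11.90 and 12.06 in citrate livers, and 12.95, 12.08, 11.81 and 12.26 in water livers. These groups overlapped, with log2 fold changes of -0.34 for PVP (SE 0.20) and 0.03 for citrate. Acss2, which makes acetyl-CoA from acetate, had 8.35, 8.15, 7.91 and 7.88 in PVP livers, 8.99, 9.34, 8.27 and 8.11 in citrate livers, and 8.43, 8.24, 8.12 and 8.41 in water livers. Its citrate females were the highest of the 12 mice. PVP over citrate was -0.60 (SE 0.18, limma adjusted p = 0.269). Acss2 lay below the 95th percentile of negative control probe sets on 5 of 12 arrays.

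Khk, the fructose-phosphorylating ketohexokinase, averaged 11.78 ± 0.50 in PVP livers, 12.34 ± 0.82 in citrate livers and 12.63 ± 0.61 in water livers (log2, SD, n = 4 each). Its PVP livers did not overlap the water livers, yet its unadjusted p was 0.0551 in limma. Me1, the malic enzyme that supplies NADPH, averaged 11.97 ± 1.40 in PVP livers, 12.62 ± 0.54 in citrate livers and 13.27 ± 0.73 in water livers. The wide PVP spread came with PVP replicate 1, which had 9.98 against 12.18 to 13.26 in the other PVP livers. Slc25a1, the mitochondrial citrate carrier, averaged 10.64 ± 0.57 in PVP livers, 10.84 ± 0.04 in citrate livers and 10.92 ± 0.26 in water livers, a difference within the spread of the mice.

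**Figure D3:**
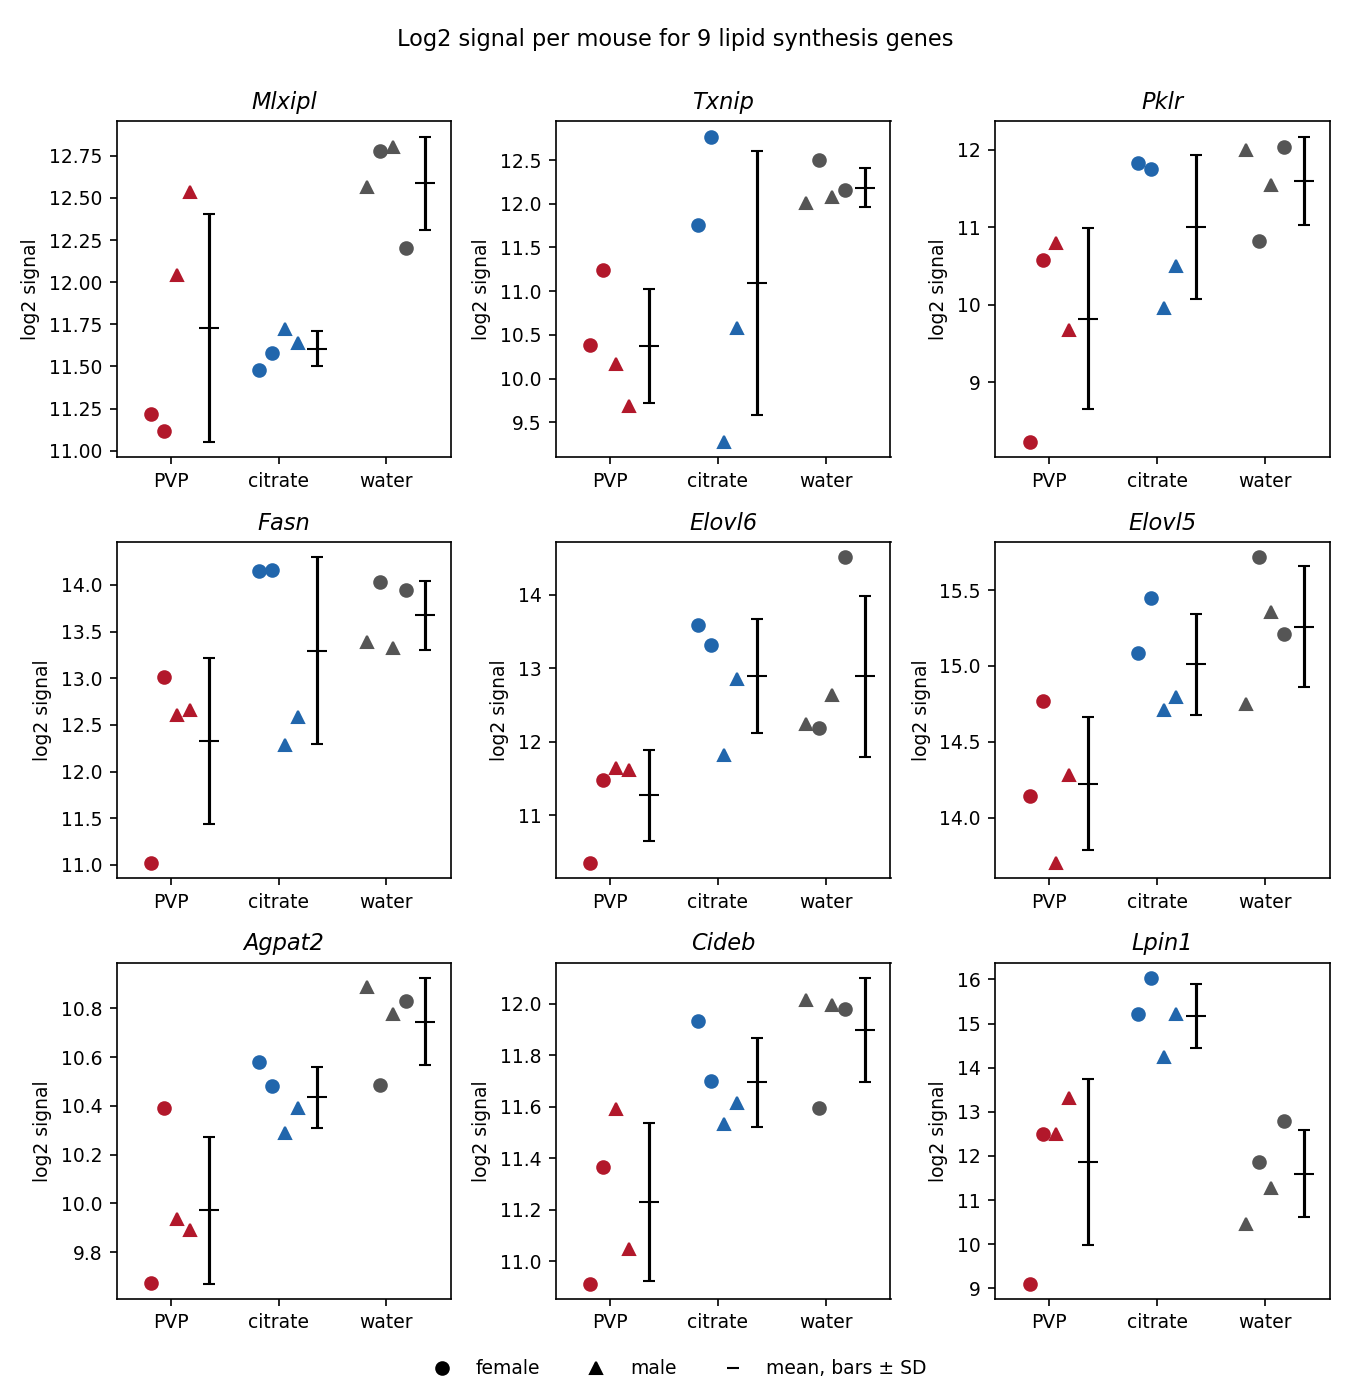
Log2 signal (y axis) in each mouse for 9 genes, with PVP, citrate and water from left to right. Circles are females, triangles are males, and the bars beside them give the mean ± SD of 4 mice. PVP livers do not overlap water livers for Txnip, Pklr, Fasn, Elovl6, Agpat2 and Cideb, and citrate livers do not overlap water livers for Mlxipl and Lpin1.

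Fatty acid chains are made by Acaca, Acacb, Fasn and Elovl6. Fasn, which encodes fatty acid synthase, had 11.02, 13.01, 12.61 and 12.66 in PVP livers, 14.15, 14.16, 12.29 and 12.58 in citrate livers, and 14.03, 13.95, 13.39 and 13.32 in water livers. Each PVP liver lay below each water liver. Citrate livers divided by sex, with both females above and both males below the range of water livers. For PVP the log2 fold change was -1.35 (SE 0.49, limma adjusted p = 0.185), or 2.55-fold lower, and that for citrate was -0.38. For PVP it was -0.75 without replicate 1, -0.86 without both arrays of lowest area and -0.72 with the area as a covariate.

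Elovl6, the elongase that turns palmitate into stearate, had 10.35, 11.47, 11.65 and 11.62 in PVP livers, 13.59, 13.31, 11.82 and 12.85 in citrate livers, and 12.18, 14.50, 12.24 and 12.64 in water livers. PVP livers lay below every citrate and every water liver. The log2 fold change was -1.62 (SE 0.54) against either group, with limma adjusted p-values of 0.172 against water and 0.294 against citrate, and with the area as a covariate it was -0.76 against water and -0.90 against citrate.

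Acaca, the cytosolic acetyl-CoA carboxylase of fatty acid synthesis, had 9.86, 10.69, 10.67 and 10.97 in PVP livers, 11.59, 11.50, 10.31 and 10.79 in citrate livers, and 10.80, 11.08, 11.15 and 11.02 in water livers. The citrate females were the highest of the 12 mice and PVP replicate 1 the lowest, with log2 fold changes of -0.47 for PVP (SE 0.31), or -0.19 without replicate 1, and 0.03 for citrate. Acacb, the mitochondrial carboxylase whose malonyl-CoA restrains fatty acid oxidation, had 7.74, 8.22, 7.35 and 7.98 in PVP livers, 9.75, 10.03, 8.32 and 8.80 in citrate livers, and 7.91, 8.65, 8.09 and 8.65 in water livers. Citrate livers lay above every PVP liver and overlapped the water livers through 1 male. The log2 fold change was 0.90 for citrate over water (SE 0.32, limma adjusted p = 0.571) and -1.41 for PVP over citrate (SE 0.32, limma adjusted p = 0.238). Acacb lay below the 95th percentile of negative control probe sets on 5 of 12 arrays.

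Among genes of unsaturated fatty acids, Scd1 makes monounsaturated chains. Its probe set stood at the ceiling of the deposited values, 19.93, in 10 of 12 livers, with 19.28 in PVP replicate 2 and 19.92 in citrate replicate 2, so no fold change is given. A dimmer Scd1 probe set averaged 15.61 ± 1.10 in PVP livers, 16.25 ± 0.47 in citrate livers and 16.36 ± 0.34 in water livers (log2, SD, n = 4 each). The spread of the PVP livers covered the other groups.

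Elovl5, an elongase of polyunsaturated chains, had the smallest adjusted p of the list for PVP. Its log2 signals were 14.14, 14.77, 13.70 and 14.28 in PVP livers, 15.09, 15.45, 14.71 and 14.79 in citrate livers, and 15.72, 15.21, 14.75 and 15.35 in water livers. Among water livers, the highest PVP liver exceeded only the lowest, and by little. It also exceeded citrate replicate 3, at 14.77 against 14.71. The difference of PVP over water was -1.04 (SE 0.20, limma adjusted p = 0.073), or 2.05-fold lower, and PVP over citrate was -0.79 (SE 0.20, limma adjusted p = 0.247). With the area of control probe sets as a covariate or without any of the 12 mice in turn, Elovl5 stayed between -1.15 and -0.90 over water.

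Fads1 and Fads2 encode the desaturases of polyunsaturated fatty acids and are neighbours on chromosome 19. Fads1 had 14.96, 15.28, 14.95 and 15.32 in PVP livers, 15.76, 15.73, 15.71 and 15.76 in citrate livers, and 15.83, 15.83, 15.10 and 16.02 in water livers. Fads2 had 16.35, 16.61, 16.82 and 17.15 in PVP livers, 17.71, 17.39, 17.77 and 17.85 in citrate livers, and 17.34, 17.43, 16.66 and 18.08 in water livers. For both genes each PVP liver lay below each citrate liver, and 1 water male had low values that overlapped PVP. PVP over water was -0.57 for Fads1 (SE 0.18, limma adjusted p = 0.158) and -0.65 for Fads2 (SE 0.25, limma adjusted p = 0.206), with -0.43 for Fads2 without water replicate 3. PVP over citrate was -0.61 for Fads1 (SE 0.18, limma adjusted p = 0.258) and -0.95 for Fads2 (SE 0.25, limma adjusted p = 0.247). Elovl2, which elongates long polyunsaturated chains, averaged 16.78 ± 0.33 in PVP livers, 16.92 ± 0.49 in citrate livers and 16.98 ± 0.34 in water livers, with all 3 groups overlapping.

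Glycerolipid assembly begins with Gpam, the mitochondrial glycerol phosphate acyltransferase, which had 10.93, 11.11, 11.75 and 11.86 in PVP livers, 11.66, 11.94, 11.89 and 11.90 in citrate livers, and 12.25, 11.39, 12.14 and 12.42 in water livers. PVP over water was -0.64 (SE 0.20, limma adjusted p = 0.160), with overlap through 1 water female. Agpat2, which adds the next acyl chain to make phosphatidate, had 9.67, 10.39, 9.94 and 9.89 in PVP livers, 10.58, 10.48, 10.29 and 10.39 in citrate livers, and 10.49, 10.83, 10.89 and 10.78 in water livers. PVP livers lay below every water liver. This gave -0.77 for PVP over water (SE 0.16, limma adjusted p = 0.087), or 1.71-fold lower, and was -0.51 with the area as a covariate. Agpat3, a related acyltransferase gene, averaged 8.71 ± 0.40 in PVP livers, 8.95 ± 0.13 in citrate livers and 9.07 ± 0.32 in water livers, within the spread of the mice.

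Lpin1 had the largest log2 fold change of the list, with citrate. It encodes lipin 1, a phosphatidate phosphatase that makes diacylglycerol and also acts in the nucleus with PPAR-alpha and PGC-1alpha, and it is known to be induced by fasting and glucocorticoids. Its log2 signals were 9.11, 12.51, 12.50 and 13.32 in PVP livers, 15.21, 16.03, 14.23 and 15.21 in citrate livers, and 11.87, 12.80, 10.45 and 11.27 in water livers. Each citrate liver lay above all 8 other livers. Citrate over water was 3.57 (SE 0.86, limma adjusted p = 0.316), or 11.9-fold, and PVP over citrate was -3.31 (SE 0.86, limma adjusted p = 0.247). PVP over water was 0.26 (SE 0.86), with PVP livers spread on both sides of the water livers, and 1.31 (SE 0.47, limma adjusted p = 0.280) without PVP replicate 1. Against citrate it was -2.26 without that mouse.

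The values and the error of Lpin1 depended on PVP replicate 1, whose level of 9.11 was the lowest of all. Without that mouse the citrate fold change was the same and its SE was 0.43, with a limma adjusted p of 0.0468, while over the other alternatives the adjusted p ran up to 0.718. Lpin2, which encodes a second lipin of the liver, averaged 11.71 ± 0.45 in PVP livers, 12.12 ± 0.46 in citrate livers and 11.63 ± 0.62 in water livers. These ranges overlapped. The third lipin gene, Lpin3, lay below the median negative control probe set on all 12 arrays, as did Mogat1 and Pnpla3, so their values of 3.36 to 4.71 were not above background.

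Of the genes for the final acylation, Dgat2, the main diacylglycerol acyltransferase of newly made fatty acids, averaged 16.27 ± 0.43 in PVP livers, 16.66 ± 0.39 in citrate livers and 16.55 ± 0.18 in water livers. Dgat1 had 6.34, 6.42, 6.63 and 6.42 in PVP livers, 6.61, 6.73, 6.59 and 6.69 in citrate livers, and 6.54, 6.76, 6.57 and 6.74 in water livers, all below the 95th percentile of negative control probe sets. For PVP over water this gave -0.20 (SE 0.084, limma adjusted p = 0.221), and it was -0.13 without both arrays of lowest area and -0.11 with the area as a covariate.

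At the droplet, Cideb, which loads lipid onto nascent very low density lipoprotein, had 10.91, 11.37, 11.59 and 11.05 in PVP livers, 11.93, 11.70, 11.53 and 11.62 in citrate livers, and 11.60, 11.98, 12.02 and 11.997 in water livers. PVP livers lay below every water liver, though the highest PVP liver and the lowest water liver were close. The PVP value was -0.67 over water (SE 0.17, limma adjusted p = 0.121), or 1.59-fold lower, and was -0.42 without both arrays of lowest area and -0.38 with the area as a covariate. Pnpla2, the adipose triglyceride lipase, averaged 8.16 ± 0.17 in PVP livers, 8.46 ± 0.16 in citrate livers and 8.38 ± 0.41 in water livers. Cidec, a droplet fusion gene that rises in fatty liver, lay at 4.34 to 4.86 and below the negative control median on 9 of 12 arrays.

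The response was also compared between the sexes, with 2 mice per sex and group. For PVP the effect in females minus that in males had an adjusted p under 0.05 in 0 of 30 genes, against 0% of all genes, and an unadjusted p under 0.05 in 3, against 3.62%. These were Mlxipl at -0.93, Dgat2 at -0.83 and Lpin1 at -3.58, all with adjusted p-values of 1.0 in limma. Without PVP replicate 1 they were -0.98, -0.53 and -1.88, so those of Dgat2 and Lpin1 were smaller by over 1.5 times without that female. For citrate 0 genes passed, against 0% of all genes, and 4 had an unadjusted p under 0.05, against 2.45%. They were Txnip at 2.05, Acss2 at 0.90, Acaca at 1.13 and Acacb at 1.42, again with adjusted p-values of 1.0 in limma.

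The medians by sex are given for each coating and were not tested against each other. Each rests on 2 mice per sex and group, and shares over all genes were not counted for each sex alone. For PVP the median log2 fold change over water was -0.66 in females and -0.39 in males, with 28 and 24 of 30 genes below 0. The effect was higher in females in 9 of 30 genes. In 21 of 30 the difference of females minus males was below 0, against 52.9% of all genes. For citrate the median was 0.07 in females and -0.08 in males, with 10 and 18 of 30 genes below 0. The effect was higher in females in 22 of 30 genes. In 8 of 30 the difference of females minus males was below 0, against 50.4% of all genes. Pklr with citrate was 0.36 in females and -1.55 in males, and Fasn was 0.17 in females and -0.92 in males. Elovl5 with PVP was -1.01 in females and -1.06 in males, while Lpin1 with citrate was 3.29 in females and 3.86 in males.

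**Figure D4:**
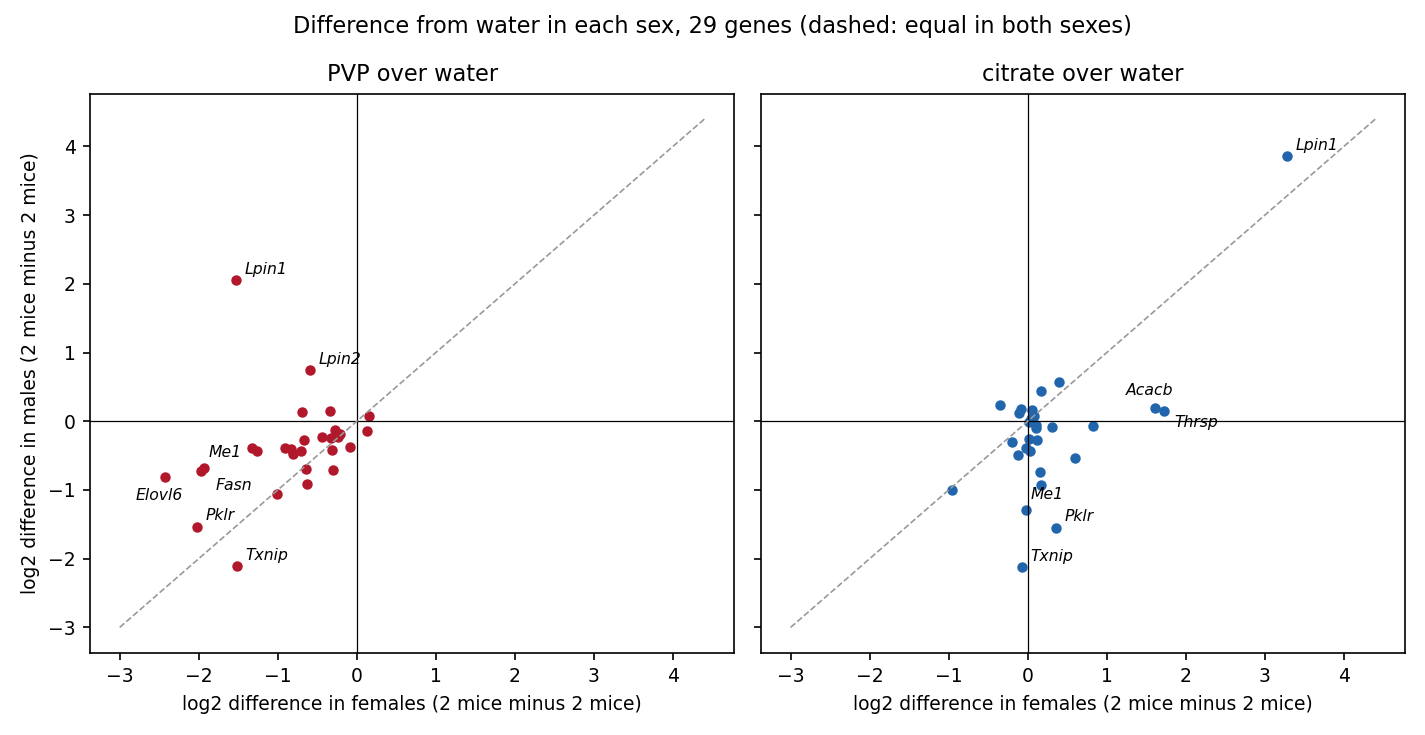
Log2 difference from water controls of the same sex in females (x axis) and males (y axis) for 29 genes, with PVP on the left and citrate on the right. Each point is the difference of 2 means of 2 mice, and the dashed line marks equal differences. Under PVP most points lie at the lower left, and Lpin1 lies at -1.52 in females and 2.05 in males. Under citrate Lpin1 is high in both sexes, and Txnip and Pklr are low in males.

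Between the sexes over all treatments, 0 of the 30 genes passed an adjusted p of 0.05, against 2.18% of all genes, and 7 had an unadjusted p under 0.05, against 15.3%. Higher in females among these were Txnip at 1.17, Elovl5 at 0.46, Acss2 at 0.47 and Acly at 0.46 on the log2 scale. Lower were Mlxipl at -0.49, Gpam at -0.44 and Elovl2 at -0.44. Without PVP replicate 1, Fasn passed with a log2 fold change of 0.98 and a limma adjusted p of 0.0453.

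Genes that surround this pathway were counted from lists of known control, supply and lipid handling genes. In the comparisons between groups 0 of the genes named here passed the adjusted threshold. Over all genes, 12.2% were lower and 8.05% higher with PVP over water at an unadjusted p under 0.05, and 3.82% lower and 2.75% higher with citrate over water, and 50.5% and 49.6% lay below 0. Among 11 genes of SREBP and LXR control, 11 with PVP and 8 with citrate were below 0 over water. At an unadjusted p under 0.05, 4 of 11 were lower with PVP, against 12.2% of all genes, and 4 of 11 with citrate, against 3.82%. Mid1ip1, the Thrsp relative that activates acetyl-CoA carboxylase, averaged 6.62 ± 0.16 in PVP livers, 6.63 ± 0.15 in citrate livers and 7.30 ± 0.20 in water livers. Its log2 fold changes were -0.68 (SE 0.12, limma adjusted p = 0.0676) and -0.66 (SE 0.12, limma adjusted p = 0.194). These Mid1ip1 means lie below the 95th percentile of negative control probe sets, which ran from 7.72 to 8.53 over the arrays. Insig1, an SREBP target that retains SREBP in the endoplasmic reticulum, had -0.59 with PVP (SE 0.16), Usf1 had -0.18 with citrate, and Insig2 and Scap had -0.44 and -0.36 for PVP over citrate.

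The partners and shared targets of ChREBP had 5 of 6 genes below 0 with PVP and 5 of 6 with citrate. Lower at an unadjusted p under 0.05 were 1 of 6 with PVP and 1 of 6 with citrate, against 12.2% and 3.82% of all genes. Counts of 1 are too small to set against these shares. Mlx, the obligate partner of ChREBP, averaged 9.38 ± 0.22 in PVP livers, 9.86 ± 0.11 in citrate livers and 9.87 ± 0.24 in water livers. PVP over water was -0.49 for Mlx (SE 0.15, limma adjusted p = 0.146), and citrate over water was -0.49 for Arrdc4 (SE 0.17, limma adjusted p = 0.568), the Txnip relative that ChREBP also activates. Tkfc with PVP, Mlxip with citrate and Slc2a5 for PVP over citrate had -0.98, 0.24 and -0.18.

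Other genes supply carbon and NADPH. Of 10 genes of glycolysis and citrate supply, 8 were below 0 with PVP and 8 with citrate. With PVP 4 of 10 were lower at an unadjusted p under 0.05, against 12.2% of all genes. With citrate it was 1 of 10, against 3.82%, a count too small to set against that share. The pyruvate dehydrogenase subunit gene Pdhb had -0.73 with PVP (SE 0.26) and -0.74 for PVP over citrate, and Tpi1 had -0.27 with PVP and -0.16 with citrate. Gckr, the glucokinase regulator, had -0.72 with citrate, and Pgk1 had -0.41 for PVP over citrate. Of 5 genes of NADPH supply, 5 were below 0 with PVP and 1 with citrate. Lower at an unadjusted p under 0.05 were 2 with PVP, against 12.2% of all genes, and 0 with citrate, against 3.82%. Mthfd1 had -0.52 with PVP and -0.08 with citrate, Pgd had -0.23 with PVP, and Taldo1 had 0.05 with citrate. Against citrate, Mthfd1 and Pgd with PVP had -0.45 and -0.26.

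Acyl-CoA synthetases, further elongases and desaturases showed 13 of 15 genes below 0 with PVP and 7 of 15 with citrate. By unadjusted p under 0.05, 6 of 15 were lower with PVP, against 12.2% of all genes. With citrate 0 were lower and 1 was higher, against 3.82% and 2.75%. Acsl4, which activates arachidonate, averaged 11.19 ± 0.47 in PVP livers, 12.39 ± 0.12 in citrate livers and 11.61 ± 0.41 in water livers. Citrate over water was 0.77 (SE 0.24) and PVP over citrate was -1.20 (SE 0.24, limma adjusted p = 0.212). Acsl5 had -0.59 with PVP over water and -0.63 over citrate, Acsf3 had -0.27 with PVP, and Mlycd, which degrades malonyl-CoA, had -0.32 with citrate.

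Among 8 other genes of glycerolipid assembly, 5 were below 0 with PVP and 4 with citrate. Lower at an unadjusted p under 0.05 were 2 with PVP, against 12.2% of all genes, and 1 with citrate, against 3.82%. Lclat1 had -0.55 with PVP and -0.68 for PVP over citrate, and Agpat5 had -0.20 with PVP, 0.15 with citrate and -0.36 for PVP over citrate. Gpat3 had -0.32 with citrate. Among 14 genes of droplets and lipolysis, 12 were below 0 with PVP and 9 with citrate. Of the 14, 7 were lower with PVP at an unadjusted p under 0.05, against 12.2% of all genes, and 3 were lower and 2 higher with citrate, against 3.82% and 2.75%. Plin2, the droplet coat protein whose level is known to follow stored triglyceride, averaged 12.76 ± 0.31 in PVP livers, 12.97 ± 0.28 in citrate livers and 13.73 ± 0.33 in water livers. Its log2 fold changes were -0.96 (SE 0.21, limma adjusted p = 0.0952) and -0.76 (SE 0.21, limma adjusted p = 0.441). Hsd17b13 had -0.61 with PVP, Plin4 had 0.71 with citrate, and Abhd5 and Plin5 had -0.50 and -0.77 for PVP over citrate.

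Of 10 genes of triglyceride secretion and uptake, 9 were below 0 with PVP and 7 with citrate. Lower at an unadjusted p under 0.05 were 1 with PVP, against 12.2% of all genes, and 0 with citrate, against 3.82%. Tm6sf2, which aids the lipidation of secreted lipoproteins, had -0.69 with PVP (SE 0.18) and -0.35 with citrate. Mttp, the lipid transfer protein of lipoprotein assembly, had -0.67 with PVP, and Apoc3 had -0.21 with citrate. For PVP over citrate Tm6sf2 and Mttp had -0.35 and -0.48. Of 12 genes of insulin and AMPK signalling, 10 were below 0 with PVP and 8 with citrate. At an unadjusted p under 0.05, 2 were lower and 1 higher with PVP, against 12.2% and 8.05% of all genes. With citrate 1 was lower and 0 were higher, against 3.82% and 2.75%. Prkab1 and Irs2 had -0.24 and 0.87 with PVP, Irs1 and Trib3 had -0.69 and -0.15 with citrate, and Mtor and Rictor had -0.36 and -0.43 for PVP over citrate.

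Genes of the fasting and glucocorticoid state lay mostly above the water controls. Of 11 tested, 3 were below 0 with PVP and 1 with citrate. Higher at an unadjusted p under 0.05 were 0 with PVP, against 8.05% of all genes, and 4 with citrate, against 2.75%. Zbtb16, a glucocorticoid-induced transcription factor gene, averaged 6.87 ± 0.66 in PVP livers, 8.44 ± 0.87 in citrate livers and 6.07 ± 0.19 in water livers. The log2 fold change was 0.80 with PVP, 2.38 with citrate (SE 0.41, limma adjusted p = 0.144) and -1.58 for PVP over citrate. The 95th percentile of negative control probe sets ran from 7.72 to 8.53 over the arrays. The PVP and water means of Zbtb16 lie below that range and its citrate mean lies within it. Igfbp1, an insulin-repressed gene, averaged 14.83 ± 2.19 in PVP livers, 15.48 ± 1.39 in citrate livers and 12.47 ± 4.08 in water livers, so the water livers themselves differed widely. Fkbp5, a glucocorticoid target, had 0.75 with citrate, and Ppargc1a had -0.94 for PVP over citrate. The part of the fed or fasted state in the levels of the lipid genes was not tested.

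Sex differences passed the adjusted threshold in limma in 7 of the 102 genes tested from these 10 lists, against 2.18% of all genes. The elongase gene Elovl3 averaged 5.35 ± 0.64 in females and 12.17 ± 0.77 in males (log2, SD, n = 6 each), a log2 fold change of -6.83. Ces3a, a lipid hydrolase gene, averaged 17.24 ± 0.88 in females and 19.15 ± 0.29 in males. Higher in females were Irs2 at 1.72, Tm6sf2 at 0.98, Arrdc4 at 0.70, Gpat3 at 0.65 and Mpc1 at 0.59.

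Levels of markers of other liver cells are set beside those of the lipid genes. The mean log2 signal of 8 Kupffer cell markers was 7.57 to 9.43 in PVP livers, 7.62 to 8.76 in citrate livers and 7.36 to 8.29 in water livers. That of 6 leukocyte markers was 6.07 to 7.55 in PVP livers, 5.92 to 6.63 in citrate livers and 4.89 to 6.51 in water livers, and 2 of these markers were below the negative control median on every array. For 6 stellate cell markers it was 6.90 to 7.502 in PVP livers, 7.27 to 7.72 in citrate livers and 7.47 to 7.94 in water livers. For 5 sinusoidal endothelial markers it was 8.09 to 8.61 in PVP livers, 8.59 to 8.85 in citrate livers and 8.35 to 8.82 in water livers. The sinusoidal median log2 fold change over water was -0.31 with PVP, with 4 of 5 below 0, and 0.03 with citrate, with 2 of 5. It was -0.38 for PVP over citrate. Stellate medians were -0.34 and -0.22 over water, with 6 of 6 below 0 for either coating. Kupffer medians were 0.43 and 0.38, with 0 of 8 below 0 for either. Leukocyte medians were 0.22 and 0.08, with 2 and 1 of 6 below 0. Over all genes 50.5% with PVP and 49.6% with citrate lay below 0. The part of these cells and of array quality in the lower levels of the lipid genes was not tested beyond the fits with the control probe set area.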

How the data were processed

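Total liver RNA of 12 mice was hybridised to Affymetrix whole-transcript arrays, 1 per mouse, and groups and sexes were taken from the labels. The values were log2 signals in a table deposited by the authors. The submitters' processing notes name RMA and Transcriptome Analysis Console 4.0.1.36 but do not say what each did. Values ran from 1.73 to a ceiling of 19.93, so a change of a very abundant transcript is understated, and array medians ran from 4.13 to 4.40. The number of arrays limits the precision. The build and annotation behind the signals are not given in the sources used here, and scanner intensities were not used here.

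Of 72688 probe sets, 30604 name 1 gene symbol, 2146 several and 39938 none, and 1135 symbols were updated from RefSeq GRCm38.p6. Genes whose mean exceeded 3.93, the 40th percentile over probe sets, entered 1 model in limma 3.58.1 (R 4.3.3) with a variance trend, group and sex as terms, and Benjamini-Hochberg adjustment over 19985 genes, two-sided. A second model, of 6 means, tested whether the response differed between the sexes. The tests were also run on simulated data. The 33 genes, the other lists and the tests were chosen with earlier results of these data known. Values per mouse are given for genes with an unadjusted p under 0.05 between groups and for Mlxipl, Fasn, Acaca, Acly and Scd1 in any case, and from the other lists the 2 genes of smallest p in each comparison between groups, or those past the threshold, are named. Khk and Me1 were given with more detail after their values were seen, and so were further values of Fkbp5, Igfbp1 and Zbtb16. The alternatives were another normalization, another filter, the mean over probe sets, other models, array weights, the control probe set area, a replicate block and leaving out each mouse. Leaving out both arrays of lowest area, and leaving out the 4 genes at the ceiling or background, were added after seeing the data. Replicate numbers were not taken as pairs, since the same number carries different sexes in different groups.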

Additional observations from a re-analysis of the deposited data

Results flagged for a closer look

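A mouse was looked at again where, within a group of 4, its gap to the nearest other mouse took a larger share of the range of the group than Dixon's 95% critical value. Of 92 groups of values, 7 had such a mouse, and chance gives about 1 in 20 such groups. In PVP livers Elovl6 was lowest in replicate 1 at 10.35, against 11.47 to 11.65 in the others, and Scd1 was lowest in replicate 2 at 19.28, with the others at the ceiling. In citrate livers replicate 2 was lowest for Slc25a1 at 10.78, against 10.86 to 10.87, and for Scd1 at 19.92, with the others at the ceiling. In water livers Lpin2 was lowest in replicate 1 at 10.71, against 11.91 to 11.96. Water replicate 2 was lowest for Cidec at 4.34, against 4.68 to 4.71, and for Cideb at 11.60, against 11.98 to 12.02. Cidec lies near the negative control probe sets. For Scd1 the other mice are tied at the ceiling, so any mouse below it is picked out, and these 2 of the 7 say nothing against the chance rate.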

How the results depend on the processing

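The alternatives were fitted over all genes, and direction and threshold were compared for 27 fold changes. These were the fold changes of the list with an unadjusted p under 0.05 between groups, and not those of each other gene named. Over 25 alternatives 0 of these 675 values reversed their direction. All 27 missed the adjusted threshold to begin with, so that 674 still missed it shows little about stability. The exception was Lpin1 for citrate over water, which passed without PVP replicate 1. Leaving out 1 mouse at a time, the genes of the list past the adjusted threshold were 0 to 1 for citrate over water and 0 to 1 for females over males, where Fasn passed without PVP replicate 1. The median of the list moved to -0.26 for PVP over water and -0.262 for PVP over citrate with the control probe set area as a covariate. Counts over all genes depended more on the model. For PVP over water 8 genes passed, against 4 with no filter, 85 with the stricter filter, 5 with the mean over probe sets, 2 with no sex term, 52 with no variance trend, 37 with array weights, 2 with the area as a covariate, 0 with the 2 groups alone, with 6 means of group by sex or without both arrays of lowest area, and 1 to 61 leaving out 1 mouse. For citrate over water 1 passed, against 2 with median centring or no variance trend, 6 with quantile normalization, 4 with the stricter filter, 5 with array weights or the area, 0 with no sex term, the 2 groups alone, 6 means or without both arrays, and 0 to 6 leaving out 1 mouse. For PVP over citrate limma passed 0 genes, while 2800 had an unadjusted p under 0.05, against 2 with quantile normalization, 1 with 6 means and 4 with array weights. For females over males 435 passed, against 860 with array weights, 929 with the area and 245 to 605 leaving out 1 mouse. The sex difference in response gave 0 to 2 genes for citrate and 0 to 3 for PVP leaving out 1 mouse. With a replicate block the counts were 0 for PVP over water, 0 for citrate over water and 56 for females over males, and 0 genes of the list passed. Same-numbered mice correlated at -0.44 to 0.234 over 12 pairs and others at -0.373 to 0.523 over 36 pairs. The cause of these differences was not tested. Groups of 4 mice, 2 of each sex, limit what can be seen, and the ceiling and the background of the array limit Scd1, Lpin3, Pnpla3, Cidec and Dgat1. On some arrays Acacb, Acss2, Pnpla2, Agpat3 and Pklr also lay below the 95th percentile of negative control probe sets.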
